A study of Mus musculus with 18 samples.

Results

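The effect of an ATXN1 transgene on the cerebellum was examined at week 12 after birth in FVB mice, all of them labelled Cck-/-, that is without a working gene for cholecystokinin, a neuropeptide. Of the 18 libraries of the series, the 6 from week 12 were compared: 3 labelled Cck-/- and 3 labelled ATXN1[30Q]D776/Cck-/-, called transgenic from here on. The other 12 libraries are the same genotypes at week 5 and week 28, 3 of each. By its label the transgene encodes ataxin-1 with a tract of 30 glutamines and an aspartate where the protein otherwise carries a serine that can be phosphorylated. The labels name neither the promoter nor the cell type that drives the transgene; published lines of this name use the promoter of the Purkinje cell gene Pcp2. No library without the Cck deletion and none with the transgene alone was part of the comparison, so every difference below is a difference between Cck-deficient animals. Each library was made from RNA of dissected cerebellum, and the labels do not say that the 3 of a group came from separate animals. The p-values therefore measure the spread between libraries within the 6 groups of genotype and age, as all 18 libraries were fitted together. In such bulk tissue fewer cells of a type and less RNA per cell cannot be told apart.

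Ataxin-1 is a nuclear protein that binds RNA and transcriptional regulators, among them the repressor Capicua, and expansion of its glutamine tract causes spinocerebellar ataxia type 1. Purkinje cells, the inhibitory output neurons of the cerebellar cortex, are the cells best known to suffer from it. They respond to parallel fibre input through metabotropic glutamate receptors, which act through Gq and phospholipase C to make inositol trisphosphate (IP3), and IP3 opens the IP3 receptor on the endoplasmic reticulum to release calcium. Replacing that serine by aspartate mimics phosphorylation and is known to make ataxin-1 with an unexpanded tract harmful to these cells. The title of the series names the cholecystokinin receptor Cck1R and mTORC1, a kinase complex that promotes growth and protein synthesis.

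The 6 libraries summed to 402265 to 421101 FPKM (fragments per kilobase of transcript scaled to the mapped fragments of a library), and 12767 to 13079 genes reached 1 FPKM in each. Read counts were not used, so the depth behind a value is unknown and only the spread between libraries gives its error. Mouse Atxn1 stood at 5.45, 4.98 and 7.01 FPKM in Cck-/- replicates 1 to 3 and at 5.23, 4.91 and 6.08 FPKM in the transgenic replicates. These values overlap, and whether reads of the transgene were counted in them is not given in the sources used here, so they do not check the genotype labels. Cck, labelled as deleted in every animal, read 13.8, 16.6 and 11.1 FPKM in the Cck-/- libraries and 17.1, 14.4 and 12.8 FPKM in the transgenic ones; which part of the gene is deleted is not stated. The receptor gene Cckar reached at most 0.0838 FPKM in the 6 libraries, and Cckbr stood at 1.87, 1.32 and 0.808 FPKM against 1.20, 1.08 and 0.742 FPKM. Sex is not labelled, and each group held libraries with Xist and libraries with Y-linked genes. Transgenic replicate 2 held both, with 58.8 FPKM of Xist and a summed level of 4 Y-linked genes at 10.9% of that in libraries without Xist, a combination not usual for 1 animal; where it comes from was not tested. The number of calls depends on this library: 183 genes were called with it and 59 without it, and calls of named genes that did not hold with 1 library left out are given below as lost.

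Of 22783 genes in the table, 13487 reached 1 FPKM in at least 3 of the 18 libraries and were tested on the log2(FPKM + 1) scale with limma. At an adjusted p under 0.05, 183 genes (1.36% of those tested) differed between the genotypes: 145 were lower in the transgenic libraries (1.08%) and 38 were higher (0.282%). The median decrease was -0.53 on the log2(FPKM + 1) scale, with 17 genes below -1, 62 between -0.5 and -1, and 66 closer to 0. The median increase was 0.36, and no called gene rose by as much as 1. The median over all tested genes was 0.0023. In all 183 genes the 3 libraries of one genotype lay wholly above the 3 of the other, which was also so for 8.74% of tested genes in the lower direction and 7.95% in the higher one. Among the 145 decreases, transgenic replicate 2 was the lowest library in 98, replicate 1 in 41 and replicate 3 in 6, and replicate 3 lay nearest to the Cck-/- libraries in 102. Among the 38 increases, transgenic replicate 3 was likewise the least changed in 22. Of the called genes, 57 kept their call whichever of the 6 libraries was left out, 52 of them decreases and 5 increases. These fits still used the libraries of the other ages. With the week 12 libraries fitted alone, 63 genes were called, 50 of them among the 183.

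**Figure D1:**
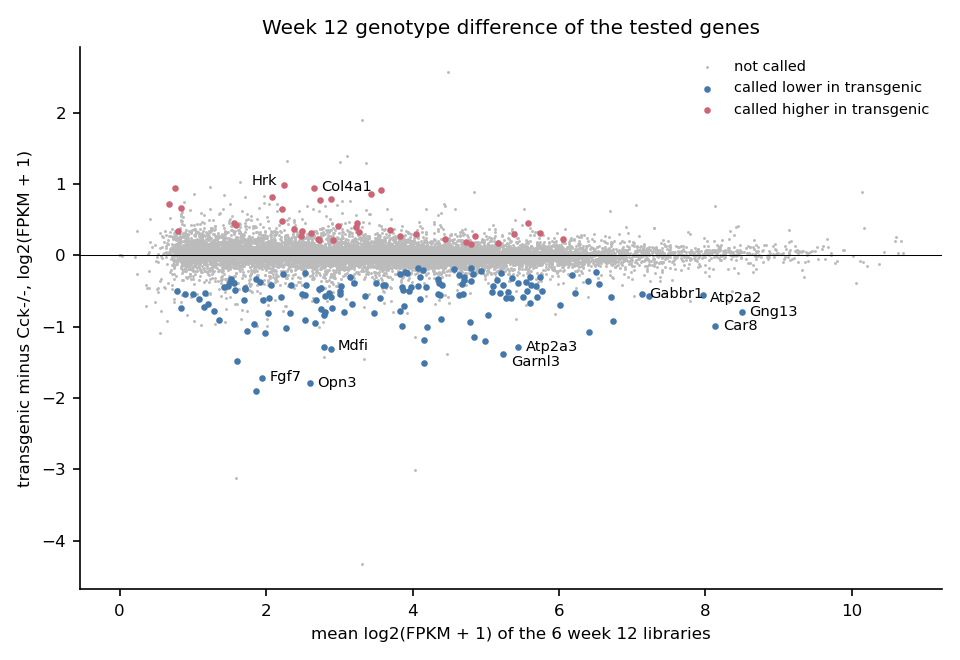
Each point is 1 of 13487 tested genes, with the mean log2(FPKM + 1) of the 6 week 12 libraries on the horizontal axis and the transgenic minus Cck-/- difference on the vertical axis. The 145 genes called lower (blue) lie over a wider range of levels and farther from 0 than the 38 called higher (red), and 3 grey genes at or beyond -3 were not called.

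Genes of the calcium pathway downstream of these receptors were lower in the transgenic libraries where they passed the test, from IP3 turnover to the pumps that refill the calcium store. Of 31 members tested, 9 were called lower and none higher, against 1.08% of tested genes called lower, and the median difference was -0.29. The list, like those below, was chosen with earlier results of these data known, so such shares are no independent test. Summed over the list, the level was 3846 to 4099 FPKM in the Cck-/- libraries and 2899.5 to 3422 FPKM in the transgenic ones. The called members described here were a kinase and a phosphatase of IP3, a regulator of the IP3 receptor, a scaffold, pumps and a buffer of the calcium store, and a calcium-dependent kinase.

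The endoplasmic reticulum pump gene Atp2a3 (SERCA3; chromosome 11, 72961169 to 72993044, GRCm38) stood at 74.8, 65.1 and 62.3 FPKM in Cck-/- replicates 1 to 3 and at 25.3, 22.4 and 34.3 FPKM in transgenic replicates 1 to 3. Every transgenic library was below the lowest Cck-/- one, and their mean was 40.6% of the Cck-/- mean (log2 difference -1.29, SE 0.16, limma adjusted p = 0.000707). Its relative Atp2a2 (SERCA2), the more abundant of these pumps here, read 309.7, 279.7 and 317 FPKM against 198, 191 and 229 FPKM. Its transgenic mean was 68.2% of the Cck-/- mean (log2 difference -0.55, SE 0.079, limma adjusted p = 0.00185). Casq2, a calcium buffer inside the store, went from 18.4, 17.9 and 16.8 FPKM to 7.43, 10.4 and 12.4 FPKM (log2 difference -0.78, SE 0.13, limma adjusted p = 0.00666). All 3 genes kept their call with any 1 library left out. With the week 12 libraries fitted alone, Atp2a3 kept its call, and Atp2a2 and Casq2 lost theirs.

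The IP3 steps followed the same direction, with calls that depended more on single libraries. Car8, a protein related to carbonic anhydrase that reduces binding of IP3 to its receptor, stood at 429, 376 and 382 FPKM in the Cck-/- libraries and 185, 174 and 244 FPKM in the transgenic ones (log2 difference -0.99, SE 0.18, limma adjusted p = 0.0119). Transgenic replicate 3 was closest to the Cck-/- libraries but still far below them. Itpka, the kinase that phosphorylates IP3, went from 43.4, 43.5 and 41.1 FPKM to 24.9, 21.6 and 24.2 FPKM, a narrow spread in both genotypes (log2 difference -0.83, SE 0.14, limma adjusted p = 0.00710). Inpp5a, the phosphatase that removes a phosphate from IP3, read 186, 175 and 184 FPKM against 111, 119.8 and 137 FPKM (log2 difference -0.57, SE 0.12, limma adjusted p = 0.0323). Homer3, a postsynaptic scaffold that binds the IP3 receptor, read 125, 125 and 131 FPKM against 78.9, 80.5 and 94.0 FPKM (log2 difference -0.59, SE 0.13, limma adjusted p = 0.0324). Camk2a, a calcium/calmodulin-dependent kinase, spread more among the Cck-/- libraries, with 33.0, 26.7 and 19.7 FPKM against 12.1, 8.75 and 12.2 FPKM (log2 difference -1.18, SE 0.26, limma adjusted p = 0.0324). Car8 lost its call without Cck-/- replicate 1 or transgenic replicate 2 (limma adjusted p up to 0.0929). Itpka lost its call without transgenic replicate 2 (limma adjusted p = 0.0556). Inpp5a and Homer3 lost their calls when any 1 library other than transgenic replicate 3 was left out (limma adjusted p up to 0.176). Camk2a lost its call without Cck-/- replicate 1 or 2 or transgenic replicate 1 or 2 (limma adjusted p up to 0.201). With the week 12 libraries fitted alone, Car8, Itpka, Inpp5a and Homer3 kept their calls, and Camk2a lost its call. Homer3 overlaps Ddx49, which lies on the other strand, by 1496 bases on chromosome 8; Ddx49 was called lower too (-0.42, limma adjusted p = 0.0221), and the library kit is not stated to keep strand, so their reads may not be separable. Ddx49 lost its call when any 1 library other than transgenic replicate 3 was left out (limma adjusted p up to 0.153).

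The remaining 22 members were not called. Named here after their values were seen, the IP3 receptor gene Itpr1 differed by -0.65 (limma adjusted p = 0.116) and the phospholipase C gene Plcb4 by -0.26 (limma adjusted p = 0.0638). Calb1, the calcium buffer calbindin, stood at 410.4, 373 and 386 FPKM against 256, 267 and 306 FPKM, with every transgenic library below the Cck-/- ones and yet an adjusted p of 0.186 by limma. Pvalb, another calcium buffer that interneurons share, differed by 0.038 (limma adjusted p = 0.971).

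Markers of Purkinje cells were lower in the transgenic libraries, 13 of 30 past the test, against 1.08% of tested genes called lower. All 30 members of a list of Purkinje cell identity genes had a negative difference, with a median of -0.57, and in 27 the groups did not overlap, against 8.74% of tested genes. The other 17 were not called, and none was higher. Members were picked with earlier results of these data known, so the background shares are no independent standard for them. The mean log2(FPKM + 1) over the list was 6.13 to 6.25 in the Cck-/- libraries and 5.50 to 5.74 in the transgenic ones. Some of these markers, such as Car8, Itpka, Homer3 and Inpp5a, are also in the calcium list. Pcp2, the gene whose promoter is commonly used to target Purkinje cells, was nearly level at 719.9, 689.7 and 684 FPKM against 596, 726 and 658 FPKM, and the groups overlapped (log2 difference -0.085, SE 0.18, limma adjusted p = 0.923). Pcp4, another abundant marker, differed by -0.10 (limma adjusted p = 0.859). The list thus held both strongly lower members and abundant ones whose levels lay within the spread between libraries.

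The largest decrease in this list was in Cep76, a centrosomal protein gene, with 48.2, 45.7 and 47.5 FPKM in the Cck-/- libraries and 18.4, 16.8 and 25.4 FPKM in the transgenic ones (log2 difference -1.20, SE 0.15, limma adjusted p = 0.000814). Doc2b, a calcium sensor of vesicle release, stood at 26.9, 24.6 and 23.7 FPKM against 12.3, 9.69 and 14.3 FPKM (log2 difference -1.01, SE 0.14, limma adjusted p = 0.00182). Icmt, which methylates the prenylated end of proteins such as Ras and G protein gamma subunits, went from 157, 143 and 140.1 FPKM to 66.9, 76.2 and 88.7 FPKM, so that its transgenic mean was 52.7% of the other (log2 difference -0.92, SE 0.13, limma adjusted p = 0.00137). Fam107b fell by 0.70 on the log2 scale (limma adjusted p = 0.00432). These 4 and Pde5a were the members that kept their call with any 1 library left out. Fam107b did not pass without the 2 libraries that held both Xist and Y-linked genes (limma adjusted p = 0.0542). It also lost its call with the week 12 libraries fitted alone. Gng13, a G protein gamma subunit and the most abundant called gene, read 443, 494 and 488 FPKM against 252, 252 and 325 FPKM. Transgenic replicates 1 and 2 were alike and lowest, and replicate 3 lay nearest to the Cck-/- libraries (log2 difference -0.79, SE 0.18, limma adjusted p = 0.0476). Grid2ip, a scaffold of parallel fibre synapses, stood at 22.9, 18.6 and 17.4 FPKM against 11.2, 7.13 and 10.03 FPKM (log2 difference -0.99, SE 0.22, limma adjusted p = 0.0324). Gng13 lost its call when any 1 library other than transgenic replicate 3 was left out (limma adjusted p up to 0.226). Grid2ip lost its call when any 1 library other than transgenic replicate 1 was left out (limma adjusted p up to 0.201).

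Transcription factors of Purkinje cells were lower in part. Of 17 tested, 4 were called lower (background 1.08%) and none higher, with a median of -0.24. Ebf2, an early B-cell factor that marks a subset of Purkinje cells, stood at 3.45, 2.99 and 2.67 FPKM against 1.66, 1.35 and 1.88 FPKM (log2 difference -0.62, SE 0.084, limma adjusted p = 0.00137) and kept its call with any 1 library left out. It was not called with the week 12 libraries fitted alone. Skor2, a co-repressor needed for Purkinje cell differentiation, stood at 4.58, 3.83 and 3.78 FPKM against 2.18, 2.11 and 2.77 FPKM (log2 difference -0.60, SE 0.12, limma adjusted p = 0.0250). The LIM homeobox gene Lhx1 read 16.6, 15.3 and 16.9 FPKM against 11.1, 10.2 and 12.98 FPKM (log2 difference -0.48, SE 0.11, limma adjusted p = 0.0473). The zinc finger gene Bcl11a differed by -0.41 (limma adjusted p = 0.0410). Skor2 lost its call without Cck-/- replicate 1 or 2 or transgenic replicate 1 or 2 (limma adjusted p up to 0.155). Lhx1 lost its call when any 1 library other than transgenic replicate 3 was left out (limma adjusted p up to 0.252). Bcl11a lost its call when any 1 library other than Cck-/- replicate 3 was left out (limma adjusted p up to 0.201). Rora, the nuclear receptor whose loss gives the staggerer mouse and whose function has been linked to ataxin-1, stood at 48.3, 45.2 and 46.97 FPKM against 41.4, 35.6 and 41.8 FPKM and was not called (log2 difference -0.24, SE 0.10, limma adjusted p = 0.360).

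Cyclic GMP signalling, which in Purkinje cells takes part in long-term depression, was lower at its kinase and a pair of its phosphodiesterases. Of 14 members tested these 3 were called lower (background 1.08%), none higher, and the list's median was -0.056. Prkg1, the cyclic GMP-dependent kinase, stood at 8.93, 7.29 and 7.20 FPKM in the Cck-/- libraries and 4.67, 3.44 and 4.58 FPKM in the transgenic ones, with transgenic replicate 2 the lowest (log2 difference -0.75, SE 0.12, limma adjusted p = 0.00300). Pde5a, which breaks down cyclic GMP, went from 19.3, 17.1 and 17.4 FPKM to 9.89, 9.70 and 12.4 FPKM (log2 difference -0.71, SE 0.10, limma adjusted p = 0.00227). Both kept their call with any 1 library left out, but Prkg1 lost it with the week 12 libraries fitted alone. Pde9a, another phosphodiesterase for cyclic GMP, differed by -0.34 (limma adjusted p = 0.0328). Pde9a lost its call when any 1 library other than transgenic replicate 3 was left out (limma adjusted p up to 0.201). The guanylyl cyclase subunits Gucy1a3 and Gucy1b3 differed by 0.18 (limma adjusted p = 0.192) and by -0.057 (limma adjusted p = 0.724); they are named here after their values were seen.

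Ion channel and receptor genes were mostly not called. Of 26 potassium channel genes tested 1 was called lower, of 24 calcium and sodium channel genes 1, and of 31 neurotransmitter receptor genes 3 (background 1.08% each), with none higher in any of these lists and medians of -0.057, -0.13 and -0.077. Gabbr1, a subunit of the GABA-B receptor, was the clearest, at 177, 164 and 163 FPKM against 112, 110.4 and 122 FPKM. The spread within each genotype was small, and the transgenic mean was 68.2% of the Cck-/- mean (log2 difference -0.55, SE 0.060, limma adjusted p = 0.000299), a call that no left-out library removed. Grik1, a kainate receptor subunit, differed by -0.53 (limma adjusted p = 0.0324), Kcnab1, a potassium channel beta subunit, by -0.67 (limma adjusted p = 0.0219), and Cacnb4, the calcium channel beta subunit mutated in the lethargic mouse, by -0.28 (limma adjusted p = 0.0430). Grik1 lost its call without Cck-/- replicate 1 or 2 or transgenic replicate 2 (limma adjusted p up to 0.201). Kcnab1 and Cacnb4 lost their calls without Cck-/- replicate 1 or 3 or transgenic replicate 1 or 2 (limma adjusted p up to 0.226). Grm7, a presynaptic metabotropic glutamate receptor outside that list, differed by -0.46 (limma adjusted p = 0.0324); it was named after its value was seen. Grm7 lost its call without Cck-/- replicate 1 or 2 or transgenic replicate 2 or 3 (limma adjusted p up to 0.201). In a list of 29 tested genes that cause ataxia when mutated, 3 were called lower (background 1.08%), Car8 among them, and none higher, and the median was -0.066.

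Many of the largest decreases fell outside these pathways: of the 17 genes below -1, 6 belonged to one of the gene lists. Opn3, which encodes the non-visual opsin encephalopsin (chromosome 1, 175662421 to 175692776), stood at 10.6, 10.2 and 10.1 FPKM in the Cck-/- libraries and 1.76, 1.92 and 3.29 FPKM in the transgenic ones. The Cck-/- libraries were tightly grouped, and the transgenic mean was 22.6% of theirs (log2 difference -1.79, SE 0.15, limma adjusted p = 4.22e-05). Chml overlaps Opn3 on the same strand over 10540 bases and was not called (log2 difference -0.087, limma adjusted p = 0.648). Fgf7, a fibroblast growth factor that organises inhibitory synapses in the hippocampus, went from 6.76, 6.12 and 5.14 FPKM to 1.37, 0.661 and 1.42 FPKM, with transgenic replicate 2 lowest (log2 difference -1.72, SE 0.21, limma adjusted p = 0.000652). Tmem255a, a membrane protein gene, stood at 32.6, 28.8 and 26.1 FPKM against 8.85, 7.37 and 13.1 FPKM (log2 difference -1.51, SE 0.19, limma adjusted p = 0.000798). Garnl3, named for its Rap GTPase-activating domain, stood at 61.9, 59.4 and 58.6 FPKM against 17.3, 20.5 and 31.7 FPKM. Its transgenic replicate 3 was clearly higher than the other two but below every Cck-/- library (log2 difference -1.38, SE 0.21, limma adjusted p = 0.00300). Mdfi, an inhibitor of myogenic transcription factors, was the most even of these, at 11.4, 10.4 and 10.1 FPKM against 3.44, 3.61 and 3.96 FPKM (log2 difference -1.32, SE 0.10, limma adjusted p = 2.08e-05).

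Further decreases that passed with any 1 library left out came from genes of varied function. Strip2, of the striatin-interacting complex, stood at 47.7, 39.4 and 37.9 FPKM against 18.3, 15.3 and 21.8 FPKM (log2 difference -1.14, SE 0.12, limma adjusted p = 0.000195). Fam117a (-1.28, limma adjusted p = 0.000866), Cep72, a centrosomal protein gene (-1.02, limma adjusted p = 0.000129), and Slc5a1, a sodium-coupled glucose transporter (-1.05, limma adjusted p = 0.00325), were also below -1. Slc5a1 was not called with the week 12 libraries fitted alone. Nrk, a kinase of the germinal centre family, differed by -0.97 (limma adjusted p = 0.000708), the synaptic vesicle protein gene Sv2c by -0.94 (limma adjusted p = 0.00296), and the desmosome gene Pkp3 by -0.81 (limma adjusted p = 0.000798). Bean1, the gene whose intron repeat causes a dominant ataxia in people, stood at 4.98, 4.35 and 3.94 FPKM against 2.44, 1.68 and 2.196 FPKM, a fall to 47.6% (log2 difference -0.81, SE 0.094, limma adjusted p = 0.000483). Atp6ap1l differed by -0.83 (limma adjusted p = 0.00307). Of the 17 genes below -1, 14 kept their call with any 1 library left out, and Th, Camk2a and Nek2 did not. Nek2, a centrosomal kinase, stood at 4.25, 4.42 and 5.72 FPKM against 0.946, 1.64 and 2.82 FPKM (log2 difference -1.09, SE 0.26, limma adjusted p = 0.0494). Nek2 lost its call when any 1 library other than transgenic replicate 3 was left out (limma adjusted p up to 0.201). The kinase gene Stk17b (-0.93, limma adjusted p = 0.00871), the meiotic gene Sycp1 (-0.91, limma adjusted p = 0.00634), Lsmem1 (-0.91, limma adjusted p = 0.0183), the orphan receptor gene Gpr63 (-0.81, limma adjusted p = 0.0442) and Tmem200b (-0.89, limma adjusted p = 0.00684) complete the 30 largest decreases with a named gene, apart from those described in other paragraphs. Stk17b lost its call without Cck-/- replicate 1 or transgenic replicate 2 (limma adjusted p up to 0.0654). Sycp1 and Tmem200b lost their calls without transgenic replicate 2 (limma adjusted p up to 0.0556). Lsmem1 lost its call without Cck-/- replicate 1 or 2 or transgenic replicate 1 or 2 (limma adjusted p up to 0.105). Gpr63 lost its call when any 1 library other than transgenic replicate 3 was left out (limma adjusted p up to 0.226).

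Th, the rate-limiting enzyme of catecholamine synthesis, which some Purkinje cells make as well as brainstem neurons, stood at 2.64, 5.51 and 4.52 FPKM against 0.824, 0.548 and 1.10 FPKM. All transgenic libraries lay below the lowest Cck-/- one, which was itself well below the other two (log2 difference -1.49, SE 0.29, limma adjusted p = 0.0160). Of a list of nuclei and brainstem markers, 9 were tested, and Th alone was called (background 1.08% lower); 7 of the 18 listed, Chat and Hoxa5 among them, were under 1 FPKM in all 6 libraries. The summed level of that list was 85.0 to 119 FPKM in the Cck-/- libraries and 99.5 to 141 FPKM in the transgenic ones, most of it from Spp1, Nefh and Nefm. Other markers of catecholamine and serotonin neurons in the list were high in Cck-/- replicate 2 alone. Dbh, which makes noradrenaline, stood at 0.286, 5.18 and 0.177 FPKM against 0.325, 0.184 and 0.525 FPKM (log2 difference -0.66, SE 0.63, limma adjusted p = 0.764). The noradrenaline transporter gene Slc6a2 read 0.103, 2.28 and 0.0282 FPKM against 0.161, 0.0380 and 0.184 FPKM (log2 difference -0.46, SE 0.44, limma adjusted p = 0.764). The serotonin genes Tph2 and Slc6a4, below the filter and not tested, read 0.365, 2.94 and 0.197 FPKM against 0.377, 0.513 and 0.424 FPKM and 0.0246, 1.505 and 0.00822 FPKM against 0.0156, 0.0567 and 0 FPKM. Th was highest in that library too, but its other Cck-/- libraries also lay above the transgenic ones. Ppp1r1b (DARPP-32), a phosphatase inhibitor that striatal neurons and also Purkinje cells express, differed by -0.41 (limma adjusted p = 0.0476). It was the only one of 10 tested midbrain and forebrain markers to be called (background 1.08% lower). The sum of those markers was 209 to 221 FPKM in the Cck-/- libraries and 181 to 219 FPKM in the transgenic ones; the part of neighbouring tissue in these differences was not tested. Pcsk1, which cuts prohormones, was the only one of 21 tested genes of neuropeptides, their processing and their receptors to be called (background 1.08% lower). It stood at 8.45, 8.15 and 9.18 FPKM against 3.78, 5.32 and 5.38 FPKM (log2 difference -0.73, SE 0.15, limma adjusted p = 0.0212). Th lost its call without Cck-/- replicate 2 or 3 or transgenic replicate 2 (limma adjusted p up to 0.109). Ppp1r1b lost its call whichever library was left out (limma adjusted p up to 0.224). Pcsk1 lost its call when any 1 library other than transgenic replicate 3 was left out (limma adjusted p up to 0.0803).

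**Figure D2:**
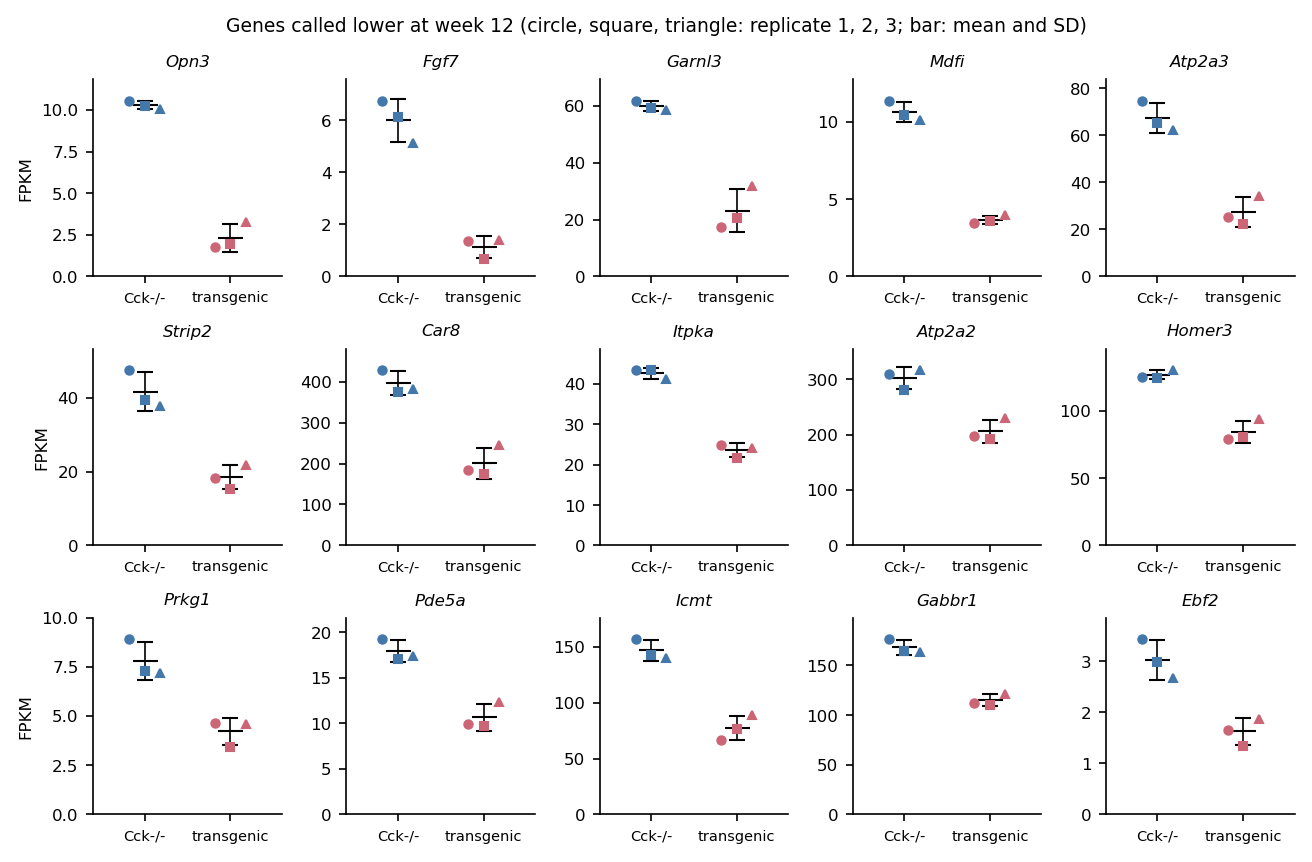
FPKM (vertical axes, from 0) of 15 genes called lower, 1 panel each, in the Cck-/- (blue) and transgenic (red) libraries of week 12; circle, square and triangle are replicates 1, 2 and 3, and the bars give the mean and SD (n = 3). In every panel the transgenic libraries lie below the Cck-/- ones, and in panels such as Garnl3, Atp2a3 and Car8 transgenic replicate 3 is the least changed.

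Among the increases, the chains of collagen IV stood out as a pair. Collagen IV forms the network of basement membranes, and its alpha 1 and alpha 2 chains are made from a pair of genes that lie head to head and share a promoter region. Col4a1 (chromosome 8, 11198423 to 11312826, GRCm38, minus strand) stood at 3.85, 3.32 and 3.50 FPKM in the Cck-/- libraries and 9.53, 8.17 and 5.96 FPKM in the transgenic ones. The lowest transgenic library was above the highest Cck-/- one, and the transgenic mean was 222% of the Cck-/- mean (log2 difference 0.95, SE 0.14, limma adjusted p = 0.00274). Col4a2 (chromosome 8, 11312805 to 11449287, plus strand) went from 3.08, 2.63 and 2.44 FPKM to 5.58, 4.78 and 4.25 FPKM (log2 difference 0.66, SE 0.11, limma adjusted p = 0.00632). Both were called whichever library was left out, and in both transgenic replicate 1 was highest and replicate 3 lowest of the transgenic libraries. Neither Col4a1 nor Col4a2 was called with the week 12 libraries fitted alone. The annotated genes overlap by 22 bases at their starts. The promoter windows of this pair are shown because the genes rose together. They run from 250 bases before to 50 bases after each start in the RefSeq annotation of GRCm38.p6 (Col4a1 at chr8:11312777-11313076, minus strand, Col4a2 at chr8:11312555-11312854, plus strand), are written 5′ to 3′ on the strand of each gene, and have in capitals the 78 bases that both windows hold.
Col4a1: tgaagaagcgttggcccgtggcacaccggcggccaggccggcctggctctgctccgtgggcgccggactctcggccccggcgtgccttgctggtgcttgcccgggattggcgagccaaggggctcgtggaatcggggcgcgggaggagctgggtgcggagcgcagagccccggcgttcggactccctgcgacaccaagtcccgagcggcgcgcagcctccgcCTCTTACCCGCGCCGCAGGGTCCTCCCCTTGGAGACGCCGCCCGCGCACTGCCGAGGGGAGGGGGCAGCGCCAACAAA
Col4a2: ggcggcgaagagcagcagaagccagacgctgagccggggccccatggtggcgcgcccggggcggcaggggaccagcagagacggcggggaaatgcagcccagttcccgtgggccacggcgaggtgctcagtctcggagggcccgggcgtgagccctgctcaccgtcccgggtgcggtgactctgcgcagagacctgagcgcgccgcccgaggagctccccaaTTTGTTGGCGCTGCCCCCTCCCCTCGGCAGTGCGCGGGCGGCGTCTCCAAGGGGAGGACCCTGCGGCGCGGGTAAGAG
The capitals of one line are the reverse complement of those of the other, and the starts used here lie 21 bases apart.

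The rest of the matrix list did not follow these chains. Of 28 tested genes of collagens and basement membranes, Col4a1 and Col4a2 were called higher, against 0.282% of tested genes called higher, none was called lower, and the median was 0.083. Markers of the cells that make vascular basement membrane, endothelium (20 tested) and mural cells (13 tested), held no called gene, with medians of 0.050 and 0.033 and sums of 289.8 to 299 FPKM in the Cck-/- libraries and 296 to 336 FPKM in the transgenic ones for endothelium. The smallest p-values among them were those of Itm2a (0.20, limma adjusted p = 0.414) and Cdh5 (0.16, limma adjusted p = 0.626) in endothelium and of Vtn (0.35, limma adjusted p = 0.358) and Acta2 (0.21, limma adjusted p = 0.508) in mural cells. Mxra7, a matrix-remodelling associated gene, stood at 4.88, 5.27 and 3.81 FPKM against 10.1, 8.96 and 7.31 FPKM (log2 difference 0.79, SE 0.15, limma adjusted p = 0.0150). Mxra7 lost its call without Cck-/- replicate 3 or transgenic replicate 1 or 2 (limma adjusted p up to 0.0888).

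Hrk encodes a BH3-only protein that promotes apoptosis in neurons, and it showed the largest increase of all called genes, from 2.28, 2.81 and 2.10 FPKM to 7.62, 5.54 and 4.32 FPKM. Transgenic replicate 1 was highest, and the lowest transgenic library exceeded the highest Cck-/- one (log2 difference 0.98, SE 0.18, limma adjusted p = 0.0117). Hrk lost its call without Cck-/- replicate 1 or 3 or transgenic replicate 2 (limma adjusted p up to 0.0590). Of 30 tested genes of stress and apoptosis, 2 were called higher (background 0.282%), Hrk among them, and none lower, and their median was -0.026. Eif2ak3 (PERK), a kinase of the unfolded protein response that was not in that list, was called higher with a smaller difference (0.27, limma adjusted p = 0.0384). Eif2ak3 lost its call when any 1 library other than transgenic replicate 3 was left out (limma adjusted p up to 0.175). Ntf3, which encodes neurotrophin-3, stood at 3.04, 3.87 and 5.63 FPKM against 7.04, 9.54 and 6.75 FPKM (log2 difference 0.78, SE 0.18, limma adjusted p = 0.0476). Ntf3 lost its call when any 1 library other than Cck-/- replicate 3 was left out (limma adjusted p up to 0.260).

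Among activated microglia markers Cd52 rose, and Clec7a, which entered the test only through the transgenic libraries, was called as well. Of 17 tested these 2 were called higher (background 0.282%), all 17 had a positive difference, and the median was 0.37. The mean level over the list was 3.61 to 3.68 in the Cck-/- libraries and 3.81 to 4.21 in the transgenic ones on the log2(FPKM + 1) scale. Clec7a, the pattern receptor dectin-1, stood at 0.299, 0.215 and 0.219 FPKM against 1.31, 1.17 and 0.700 FPKM (log2 difference 0.72, SE 0.13, limma adjusted p = 0.0110). Cd52, a surface glycoprotein of immune cells, stood at 2.19, 2.69 and 1.77 FPKM against 4.496, 6.13 and 3.58 FPKM (log2 difference 0.82, SE 0.18, limma adjusted p = 0.0330). In both, transgenic replicate 3 was closest to the Cck-/- libraries. Clec7a lost its call without Cck-/- replicate 2 or transgenic replicate 2 (limma adjusted p up to 0.0772). Cd52 lost its call when any 1 library other than transgenic replicate 3 was left out (limma adjusted p up to 0.205). Of 22 homeostatic microglia markers none was called, 21 had a positive difference, the median was 0.24 and the mean level was 2.69 to 2.78 in the Cck-/- libraries and 2.78 to 3.23 in the transgenic ones. Their smallest p-values belonged to Tyrobp (0.70, limma adjusted p = 0.0903) and C1qb (0.72, limma adjusted p = 0.199). Of 13 tested reactive astrocyte markers none was called, with a median of 0.17 and the smallest p-values in C4b (0.65, limma adjusted p = 0.240) and Aspg (0.27, limma adjusted p = 0.411).

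Most of the remaining called increases were below 0.5 on the log2 scale. Spsb4 (0.49, limma adjusted p = 0.00693) and Paqr4 (0.30, limma adjusted p = 0.00374) kept their call with any 1 library left out, but not without both libraries that held Xist and Y-linked genes, transgenic replicate 2 of week 12 and replicate 1 of week 28 (limma adjusted p = 0.0674 and 0.0503). Among the other increases, Slc38a3, a glutamine transporter, stood at 42.3, 40.7 and 36.5 FPKM against 58.0, 58.6 and 48.2 FPKM (log2 difference 0.45, SE 0.10, limma adjusted p = 0.0406), Bcan, the proteoglycan brevican, at 59.8, 59.6 and 61.5 FPKM against 66.5, 75.1 and 70.5 FPKM (log2 difference 0.22, SE 0.049, limma adjusted p = 0.0324), and Cntfr, the receptor of ciliary neurotrophic factor, at 47.7, 49.6 and 43.7 FPKM against 55.6, 61.4 and 59.7 FPKM (log2 difference 0.32, SE 0.062, limma adjusted p = 0.0158). Epha4, an ephrin receptor, differed by 0.22 (limma adjusted p = 0.0461), and its ligand gene Efna3 was called lower (log2 difference -0.79, SE 0.077, limma adjusted p = 0.000129). The transcription factor genes Creb5 (0.46, limma adjusted p = 0.0110) and Atoh7 (0.41, limma adjusted p = 0.0405) were called higher as well. Slc38a3 and Epha4 lost their calls when any 1 library other than transgenic replicate 3 was left out (limma adjusted p up to 0.224). Bcan and Atoh7 lost their calls when any 1 library other than transgenic replicate 1 was left out (limma adjusted p up to 0.201). Cntfr lost its call without Cck-/- replicate 1 or 3 or transgenic replicate 2 (limma adjusted p up to 0.110). Creb5 lost its call without Cck-/- replicate 2 or transgenic replicate 2 (limma adjusted p up to 0.0649). Mslnl, a gene related to mesothelin, stood at 0.301, 0.134 and 0.220 FPKM against 1.02, 2.16 and 1.01 FPKM (log2 difference 0.94, SE 0.20, limma adjusted p = 0.0265); it passed the filter on low values only through the transgenic libraries. Mslnl lost its call without Cck-/- replicate 1, 2 or 3 or transgenic replicate 2 (limma adjusted p up to 0.170).

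**Figure D3:**
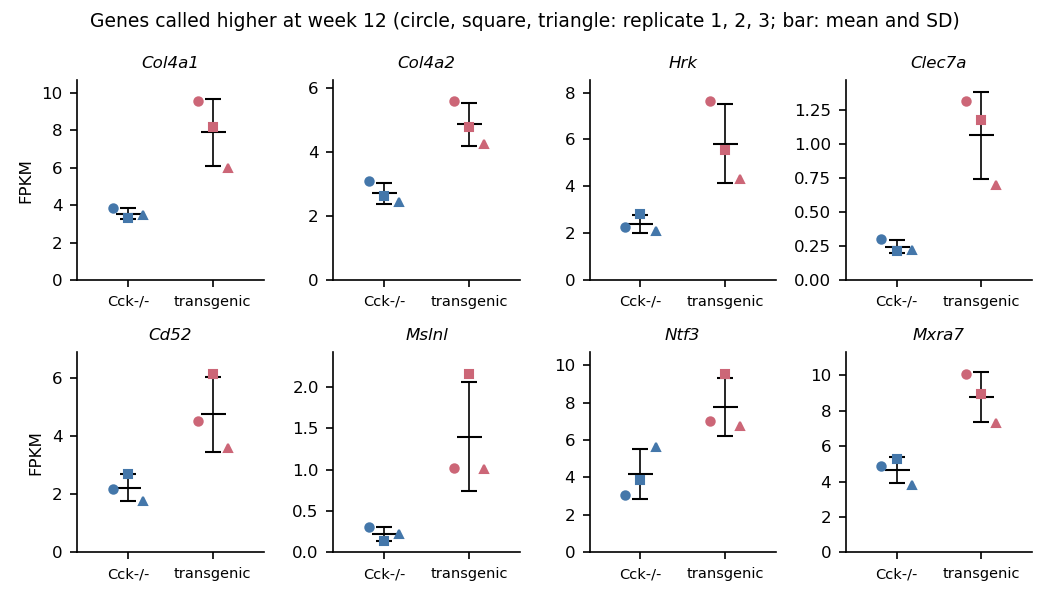
FPKM (vertical axes, from 0) of 8 genes called higher, 1 panel each, in the Cck-/- (blue) and transgenic (red) libraries of week 12; circle, square and triangle are replicates 1, 2 and 3, and the bars give the mean and SD (n = 3). The transgenic libraries lie above the Cck-/- ones in every panel, and transgenic replicate 3 is the lowest of its group in all 8.

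Other cell types of the cerebellum were set beside these changes. Granule neurons, the most numerous neurons of the cerebellum, held no called gene among 19 tested markers, and their median was -0.018; the smallest p-values were those of Chn2 (-0.24, limma adjusted p = 0.423) and Car4 (0.30, limma adjusted p = 0.458). None of 18 interneuron markers was called (median 0.030), with the smallest p-values in Gad2 (-0.27, limma adjusted p = 0.101) and Eomes (-0.64, limma adjusted p = 0.151). None of 21 markers of Bergmann glia and astrocytes was called (median 0.057). Fabp7, a fatty acid binding protein of radial and Bergmann glia, came nearest, at 98.6, 103 and 103 FPKM against 64.9, 58.8 and 81.0 FPKM (log2 difference -0.58, SE 0.15, limma adjusted p = 0.0773), followed by Slc1a3 (-0.25, limma adjusted p = 0.452). Of 23 myelin genes none was called, 22 had a positive difference and the median was 0.17, with the smallest p-values in Trf (0.38, limma adjusted p = 0.0921) and Gjb1 (0.30, limma adjusted p = 0.190). Oligodendrocyte precursors had a median of -0.0037 over 14 genes, none called, Bcas1 (0.34, limma adjusted p = 0.101) and Cspg5 (-0.11, limma adjusted p = 0.706) having the smallest p-values.

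Tissue attached to the cerebellum differed between libraries. The summed level of 15 choroid plexus markers, all above 1 FPKM in some of the 6 libraries, was 834 to 1479.8 FPKM in the Cck-/- libraries and 1176 to 3358 FPKM in the transgenic ones, highest in transgenic replicate 1, and the median difference of the list was 0.63 with no gene called. Sostdc1 (1.33, limma adjusted p = 0.569) and Slc4a5 (0.66, limma adjusted p = 0.666) had its smallest p-values. Meningeal fibroblast markers, 16 tested, summed to 1447 to 1839.5 FPKM in the Cck-/- libraries and 1536 to 2189 FPKM in the transgenic ones with a median of 0.21 and no call; Fmod (0.42, limma adjusted p = 0.471) and Igf2 (0.49, limma adjusted p = 0.510) came first by p. Of 8 blood genes none was called (median 0.017), with Hba-a2 at -0.41 (limma adjusted p = 0.853). With the choroid plexus level of each library as a covariate 156 genes were called, and 148 of them were among the 183. The part of meningeal tissue in the collagen and microglia results was not tested.

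**Figure D4:**
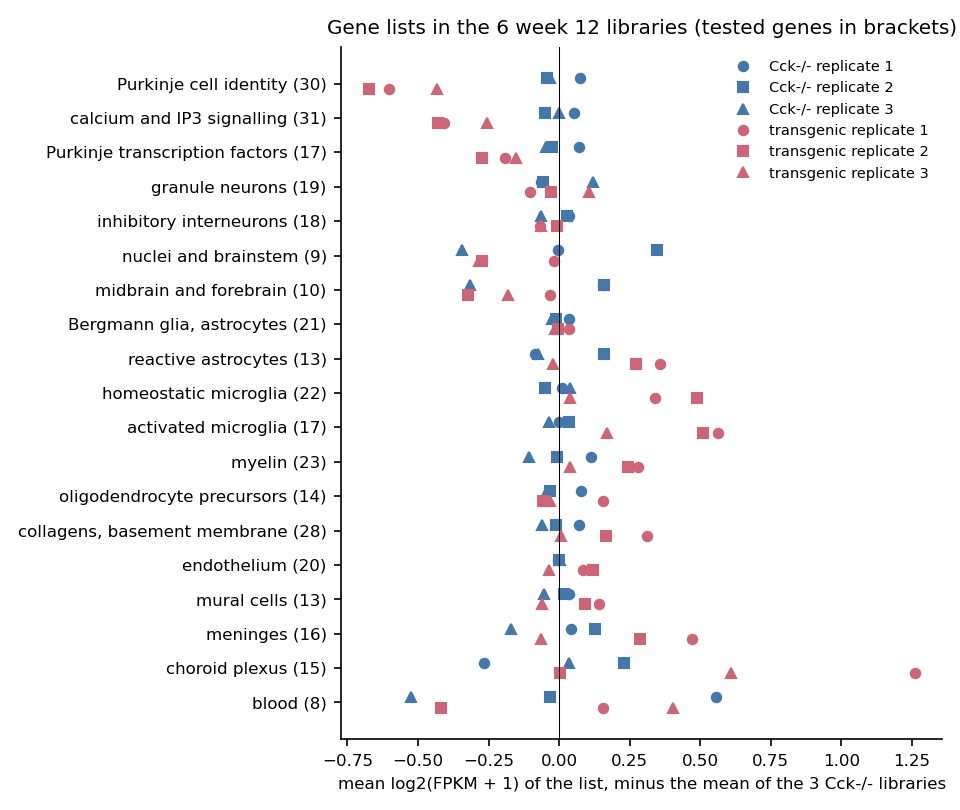
Mean log2(FPKM + 1) of 19 gene lists in each week 12 library, relative to the mean of the 3 Cck-/- libraries (horizontal axis); blue is Cck-/-, red is transgenic, and shapes give the replicate. The 3 transgenic libraries lie left of all Cck-/- libraries for Purkinje cell identity, calcium signalling and Purkinje transcription factors, and transgenic replicate 3 lies near the Cck-/- libraries for microglia, myelin and astrocyte lists.

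Pathways named in the title of the series or tied to ataxin-1 held few or no calls. None of 41 tested genes of the mTORC1 pathway was called by limma, and 5 had an unadjusted p under 0.05, 2 higher and 3 lower, against 5.69% and 6.35% of tested genes. Pik3r1, a regulatory subunit of PI3 kinase, differed by 0.19 (limma adjusted p = 0.115), and Mtor itself by -0.16 (limma adjusted p = 0.223); the list's median was -0.0057. These are transcript levels, and the kinase activity of the complex was not measured. None of 27 tested genes tied to ataxin-1 and Capicua was called by limma, although 7 had groups that did not overlap with the transgenic one lower (background 8.74%); 3 had an unadjusted p under 0.05. Dusp4, a phosphatase of MAP kinases, had the smallest p (log2 difference -0.42, SE 0.11, limma adjusted p = 0.0860), followed by the cyclin gene Ccnd1 (0.22, limma adjusted p = 0.322), and the median was -0.083. Genes of cholesterol synthesis (23 tested, median -0.00069), oxidative phosphorylation (36 tested, median 0.040), immediate early response (16 tested, median -0.13) and antigen presentation and interferon (19 tested, median -0.021) held no call. Among their first members by p were Insig1 (0.22, limma adjusted p = 0.578), Sdhb (0.13, limma adjusted p = 0.441) and Cox5b (0.22, limma adjusted p = 0.447), Bdnf (-0.43, limma adjusted p = 0.134) and Jun (0.33, limma adjusted p = 0.202), and H2-D1 (-0.27, limma adjusted p = 0.268) and Isg15 (-0.34, limma adjusted p = 0.734).

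Promoters of the called genes were searched for the 8-letter sequences that Capicua binds, TGAATGAA and TGAATGGA, and for TAGGTCA, the core of the element bound by the ROR nuclear receptors, on both strands. A RefSeq promoter window of 300 bases was found for 143 of the 183 called genes, 113 lower and 30 higher. Either Capicua sequence occurred in 2 of the 113 promoters of genes called lower (1.77%), in Elovl6 and Wiz, and in 1 of the 30 of genes called higher (3.33%), Mslnl, against 1.81% over all tested genes and 2.47% of all 32851 promoters of the table. The ROR core occurred in Fstl5 and Mtus2 among the decreases (1.77%) and in Atoh7 among the increases (3.33%), against 2.13% of tested genes and 2.61% of all promoters. These shares are near the background. Elovl6 lost its call without Cck-/- replicate 1 (limma adjusted p = 0.0702). Mtus2 lost its call when any 1 library other than transgenic replicate 3 was left out (limma adjusted p up to 0.236). Wiz, a zinc finger gene that was called lower with any 1 library left out (log2 difference -0.44, SE 0.058, limma adjusted p = 0.000980), held TGAATGGA in 2 places, and its window (chr17:32387768-32388067, minus strand, GRCm38.p6) is shown with these letters in capitals, as the only window of these 6 genes with more than 1 match.
Wiz: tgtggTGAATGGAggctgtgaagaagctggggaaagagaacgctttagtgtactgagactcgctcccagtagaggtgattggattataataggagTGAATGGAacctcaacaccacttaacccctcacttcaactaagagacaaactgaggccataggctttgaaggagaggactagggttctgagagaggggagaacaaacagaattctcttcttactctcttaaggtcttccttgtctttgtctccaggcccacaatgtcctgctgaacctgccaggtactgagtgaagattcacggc
A match describes the letters in this window and was not measured as a bound site.

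Across chromosomes, between 0.651% and 2.11% of the tested genes were called. Of the called genes, 47 had another called gene within 1 Mb, in 26 pairs, of which 22 changed in the same direction. With 145 of the 183 called genes lower, most pairs would share a direction in any case. How many pairs other sets of tested genes would give was not counted, so grouping of the called genes was not tested. The pair in opposite directions with the smallest gap was Gng13, called lower, and Mslnl, called higher, with 16635 bases between them on chromosome 17. On chromosome 15, Dap, a gene linked to cell death and autophagy (-0.60, limma adjusted p = 0.00302), lay 17136 bases from Ankrd33b (-0.47, limma adjusted p = 0.00634), both lower. On chromosome 7, Nlrp10 (-0.49, limma adjusted p = 0.00634) lay 20159 bases from Tub, the gene of the tubby mouse (-0.41, limma adjusted p = 0.00185), both lower; Nlrp10 passed the filter only through the Cck-/- libraries. On chromosome 1, Lpgat1 (-0.50, limma adjusted p = 0.00666) lay 37188 bases from Nek2, both lower. Ankrd33b and Lpgat1 lost their calls without transgenic replicate 2 (limma adjusted p up to 0.0544). Of the 183 called genes, 50 overlap another gene of the table, and without strand their reads may be shared. Some of the largest differences were not called: 16 genes differed by more than 1 without passing, 12 of them with overlapping groups. Chosen here after their values were seen, Snurf, which overlaps the imprinted gene Snrpn, stood at 2.60, 125 and 193 FPKM in the Cck-/- libraries and 1.57, 1.17 and 0.937 FPKM in the transgenic ones (log2 difference -4.33, SE 1.43, limma adjusted p = 0.190). Dynlt1b, one of several near-identical copies of a dynein light chain gene, stood at 6.08, 6.56 and 11.9 FPKM against 0, 0 and 0.0456 FPKM (log2 difference -3.12, SE 0.79, limma adjusted p = 0.0682). How reads were divided between such copies is not given in the sources used here, so these values are uncertain.

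The same genes were read at week 5 and week 28, in comparisons that share no library with week 12 but share the estimate of the spread. All 145 decreases had a negative difference at week 28 too, 138 were called lower there, against 6.13% of tested genes, and their median went from -0.53 at week 12 to -0.73 at week 28, with 120 of them larger. At week 5, 144 of the 145 had a negative difference, 105 were called lower, against 4.37% of tested genes, and the median was -0.45. Of the 38 increases, 37 had a positive difference at week 28 and 27 were called (background 4.54%), and 33 had a positive difference at week 5 and 15 were called (background 3.3%); their medians were 0.38 and 0.17. In all, 117 of the 183 were called at all 3 ages, 48 at weeks 12 and 28, 3 at weeks 5 and 12, and 15 at week 12 alone. Of the 17 decreases below -1, 16 were also called at both other ages.

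Atp2a3 differed by -1.36 at week 5, -1.29 at week 12 and -2.24 at week 28. At the same ages in order, Car8 differed by -1.07, -0.99 and -1.99. In both calcium genes the week 28 difference was the farthest from 0. At weeks 5, 12 and 28, Opn3 differed by -2.14, -1.79 and -1.61, so its difference was not largest at the last age. At these ages Col4a1 differed by 0.13, 0.95 and 1.05 (limma adjusted p = 0.0955 for the change from week 5 to week 12), and Hrk by 1.01, 0.98 and 1.86. Fstl5, a follistatin-like gene, ran the other way, at log2 differences of -0.57, -0.80 and -0.097 (limma adjusted p = 0.0212 at week 12). Its change from week 12 to week 28 was not called (limma adjusted p = 0.406). Fstl5 lost its call without Cck-/- replicate 1, 2 or 3 or transgenic replicate 2 (limma adjusted p up to 0.103). Of the Purkinje identity list, 12 genes were called lower at week 5, 13 at week 12 and 29 at week 28. Over all tested genes, the shares called lower at these ages were 4.37%, 1.08% and 6.13%. The list's medians were -0.38, -0.57 and -1.22 in the same order. The genes called at week 12 alone, such as Cacnb4, Acvr1c, Mpdz and Naglu, were not called at the other ages, and none of them passed the test of the change from week 12 to week 28. Acvr1c lost its call without Cck-/- replicate 1 or 3 or transgenic replicate 1 or 2 (limma adjusted p up to 0.176). Mpdz lost its call when any 1 library other than transgenic replicate 1 was left out (limma adjusted p up to 0.252). Naglu lost its call when any 1 library other than transgenic replicate 3 was left out (limma adjusted p up to 0.186).

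**Figure D5:**
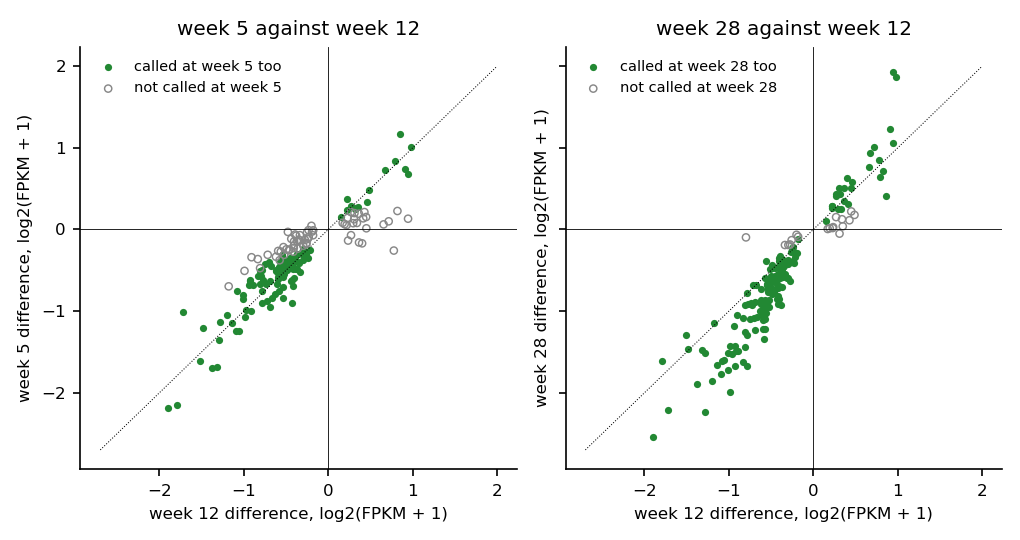
Genotype differences, transgenic minus Cck-/- in log2(FPKM + 1), of the 183 genes called at week 12 (horizontal axes) at week 5 (left) and week 28 (right, vertical axes); filled green points were called at that age as well, open ones were not, and the dotted line marks equal differences. Most decreases lie below the line at week 28, 120 of 145 being larger there, and Fstl5 is the open point near -0.1 in the right panel.

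Whether the genotype effect changed with age was tested as the difference of the effects. Between week 12 and week 28 no gene was called by limma, with 582 genes at an unadjusted p under 0.05 in the positive direction (4.32%) and 783 in the negative one (5.81%). The 3 with the smallest p were Sema6d, a semaphorin (change of 0.39), Ctxn3 (change of -1.14) and the kinase gene Map4k5 (change of 0.27), all at an adjusted p of 0.354 by limma. Transgenic replicate 1 of week 28, like replicate 2 of week 12, held both Xist and Y-linked genes, and without these 2 libraries the count for this change was also 0. In the main fit the larger median at week 28 is therefore not matched by a call for any single gene in the test of the change. With library weights, 2344 genes were called for this change. Between week 12 and week 5, 90 genes were called (0.667%), 29 with a higher effect at week 5 (0.215%) and 61 with a lower one (0.452%). Of the 183 genes called at week 12, 3 increases were among these 90, namely Naglu, Ntng2 and Sytl2, whose effect at week 5 was -0.14, -0.16 and -0.17 against 0.24, 0.36 and 0.40 at week 12 (limma adjusted p = 0.0369, 0.0409 and 0.0398 for the change). Ntng2 lost its call when any 1 library other than transgenic replicate 1 was left out (limma adjusted p up to 0.127). Sytl2 lost its call without Cck-/- replicate 2 or 3 or transgenic replicate 1 or 2 (limma adjusted p up to 0.175). No decrease of week 12 was among them.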

How the data were processed

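Total RNA of dissected cerebellum was made into Illumina TruSeq libraries, per the labels' protocols. Reads were processed for mm10 with TopHat2 2.0.11 and Cufflinks 2.2.1, per the submitters' processing notes; for annotation, filters and normalization the settings were not given in the sources used here. Values deposited by the authors are FPKM per gene symbol; a failed status marked 21 values, in 11 genes, 10 of which were tested. A pseudocount of 1 was added, and genes with at least 1 FPKM in at least 3 of 18 libraries were tested on log2 values with limma 3.58.1 in R 4.3.3 (mean-variance trend, 6 group means, 12 residual degrees of freedom, two-sided, Benjamini-Hochberg within a comparison, called at an adjusted p under 0.05). A log2(FPKM + 1) difference understates the change of low genes. The fit was tested on simulated data, with noise drawn independently for each gene and library. Deviations shared by the genes of a library were not simulated. Positions are GENCODE M21 (GRCm38; 21352 of 22783 symbols matched). The 34 gene lists and the named genes (30 largest changes each way, called list members, otherwise the 2 smallest p of a list) were chosen with earlier results of these data known; 5 clone-named called genes are counted and not named, and some genes of the rule are summarised or not reported here. There were 20 alternatives, among them each library left out. Data handling and figures used the R package data.table (1.17.8), pandas 2.3.3, numpy 2.4.6, matplotlib 3.10.9 and Python 3.11.15.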

Additional observations from a re-analysis of the deposited data

Results flagged for a closer look

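The genotype effect differed between week 5 and week 12 in 15 of the genes named by the rule for that test, each a difference of effects on the log2(FPKM + 1) scale with a limma adjusted p under 0.05. The effect was higher at week 5 for Scg5 (1.08, SE 0.11, limma adjusted p = 0.00123), Pla2g4e (1.43, SE 0.17, limma adjusted p = 0.00140), Jade2 (0.61, SE 0.081, limma adjusted p = 0.00308), Crebl2 (0.50, SE 0.065, limma adjusted p = 0.00308), Tuba1c (2.36, SE 0.32, limma adjusted p = 0.00316) and Fam227b (1.10, SE 0.15, limma adjusted p = 0.00320). At week 12 itself none of these 6 was called, with week 12 differences of -0.043, 0.21, -0.080, -0.073, 0.38 and 0.019 in the same order. Scg5 encodes a chaperone of the prohormone convertase 2, and Tuba1c an alpha tubulin. The effect was lower at week 5 for Rhbdf2 (-0.92, SE 0.11, limma adjusted p = 0.00140), Srd5a1 (-0.63, SE 0.090, limma adjusted p = 0.00398), Fa2h (-0.68, SE 0.098, limma adjusted p = 0.00408), Cers2 (-0.55, SE 0.082, limma adjusted p = 0.00567), Eps8 (-0.54, SE 0.082, limma adjusted p = 0.00640) and Tuba1a (-0.52, SE 0.080, limma adjusted p = 0.00640). Fa2h and Cers2 make lipids of myelin; their week 12 differences were 0.18 and 0.18, and neither was called at week 12. The effect was also lower at week 5 for 3 genes called higher at week 12: Naglu (-0.37, SE 0.075, limma adjusted p = 0.0369), Ntng2 (-0.52, SE 0.11, limma adjusted p = 0.0409) and Sytl2 (-0.57, SE 0.12, limma adjusted p = 0.0398). The week 12 call of each of these 3 was lost without transgenic replicate 2, among others. Tuba1a and Tuba1c are closely similar genes, and how reads were divided between them is not given in the sources used here.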

How the results depend on the processing

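The count of 183 genes called at week 12 stayed between 136 and 192 under pseudocounts of 0.1 and 0.5, no filter, a higher filter, 2 rescalings, robust fitting, no trend, Xist or choroid plexus covariates and the replicate block. It was 323 with library weights and 63 with the week 12 libraries alone, which leaves fewer residual degrees of freedom. It was 56 without the 2 libraries that held both Xist and a Y-linked gene at 1 FPKM or more. Transgenic replicate 1 of week 5 and replicate 3 of week 28 were kept in that fit. Their Xist was 99.6 and 91.4 FPKM, and their summed Y-linked level was 2.37% and 1.04% of that in libraries without Xist. Leaving out 1 library at a time gave 59 to 210 calls: 59 without transgenic replicate 2, 85 without Cck-/- replicate 1 and 90 without Cck-/- replicate 2. All 56 genes were among the 183, and all 183 kept their sign. For the change from week 12 to week 28 the count of 0 stayed at 0 except for 2344 with library weights, and was 0 to 1 with 1 library left out (1 without Cck-/- replicate 3). For the change from week 12 to week 5 the count of 90 was 367 with library weights, 39 with the choroid plexus covariate and 36 without the 2 libraries with both; leaving out 1 library gave 44 to 95, with 44 without transgenic replicate 2, 51 without Cck-/- replicate 3 and 56 without Cck-/- replicate 1. The cause was not tested. Replicate numbers are shared across genotypes: the deviations of same-numbered libraries correlated at 0.435, -0.160 and 0.283, so the numbers were not taken to pair them, and with the replicate block 192 genes were called at week 12, 0 for the change to week 28 and 86 for the change from week 5. Of 109 named called genes, 26 kept their call under every alternative and none reversed. Depth is unknown, so genes near 1 FPKM rest on the spread between libraries alone.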
